A study of Mus musculus with 8 samples.

Results

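The NADPH oxidase genes described here are *Nox4*, *Cybb*, *Cyba*, *Ncf1*, *Ncf4* and *Rac2*, which were selected by gene name from a table of 55401 genes in kidney, with 1 row for each of the 6 names. RNA-seq was performed on kidney tissue of 8 diabetic mice, each with its own library, of which 4 had received rFGF4 (recombinant human FGF4 lacking part of its N-terminus) and 4 PBS vehicle. The deposited labels describe the untreated group as a *db*/*db* model (a mutation of the leptin receptor gene with obesity and type 2 diabetes), whereas the text of the study describes the sequenced animals as mice made diabetic with streptozotocin, a toxin of pancreatic beta cells. The model therefore cannot be settled here, and with it the strain (C57BLKS/J for *db*/*db* mice). The legends of the study put the first rFGF4 injection at 12 weeks of age in either model, while its methods imply a later start in streptozotocin mice. Males were used in either model, and rFGF4 was injected intraperitoneally on alternate days over 8 weeks at 1 mg per kg of body weight. All 8 mice were diabetic and no non-diabetic kidney was compared.

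NADPH oxidases move electrons from NADPH across a membrane to oxygen and so form superoxide or hydrogen peroxide. The phagocyte enzyme joins the catalytic subunit encoded by *Cybb* (also called NOX2) to the membrane partner encoded by *Cyba*, and it becomes active when cytosolic proteins, those of *Ncf1* and *Ncf4* among them, and a Rac GTPase assemble on it. The enzyme of *Nox4* also needs the *Cyba* product but works without the cytosolic proteins, releases mainly hydrogen peroxide and is known for its abundance in kidney tubules. The study measured oxidative stress by other assays, and the comparison here asks whether transcripts of these subunits differed between kidneys of rFGF4-treated and vehicle-treated mice.

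Expression was given as FPKM (fragments divided by exon length and by the mapped reads of a library), a unit that permits levels of different genes to be set side by side. The table holds no read counts, so no counting interval was calculated. The ratio most often shared by low values put the depth of the libraries at 0.904 to 1.12 times that of vehicle mouse 2, although only 42 to 66 genes held that ratio in a library. Summed FPKM ran from 389404 to 529831 with rFGF4 and from 481318 to 552600 with vehicle, and mitochondrial transcripts took 19.0% to 35.98% and 24.4% to 38.4% of it. Genes of the kidney were abundant, with *Umod* at 654 to 1213 FPKM and *Slc34a1* at 136 to 824 FPKM. The libraries differed in content of leukocyte genes before any comparison of groups. *Igkc*, an immunoglobulin light chain gene, stood at 22334 FPKM in vehicle mouse 5 and at 22.4 to 2640 FPKM in the other 7 mice. The summed FPKM of 10 macrophage markers was 92.9 to 1340 with rFGF4 and 49.3 to 1854 with vehicle. *Lyz2* alone gave 771 FPKM of the highest rFGF4 sum (mouse 1) and 1269 FPKM of the highest vehicle sum (mouse 5). Results are therefore also given with mouse-by-mouse values, and each mouse was left out in turn.

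None of the 6 subunit genes differed between the groups by more than the spread between mice. All 6 reached the level needed for a test (at least 0.5 FPKM in 4 or more libraries), as did 15150 genes in all. On the scale of log2(FPKM + 1), the differences between rFGF4-treated and vehicle-treated mice were positive for *Cybb*, *Ncf1* and *Ncf4* and negative for *Nox4*, *Cyba* and *Rac2*, with a median of 0.01 beside 0.09 for all tested genes. At the study's threshold, an unadjusted p under 0.05 with a fold of at least 1.5 in limma, 0 of the 6 were called, where 1.52% of all tested genes were (1.09% higher and 0.436% lower with rFGF4). At an unadjusted p under 0.05 alone it was 0 of 6 beside 4.62% (3.56% higher and 1.06% lower), and at a Benjamini-Hochberg adjusted p under 0.05 it was 0 of 6 beside 0.0% (0 genes, of which the smallest adjusted p was 0.918). The values of rFGF4-treated and vehicle-treated mice overlapped for each of the 6, whereas groups without overlap were found in 3.33% of tested genes.

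**Figure D1:**
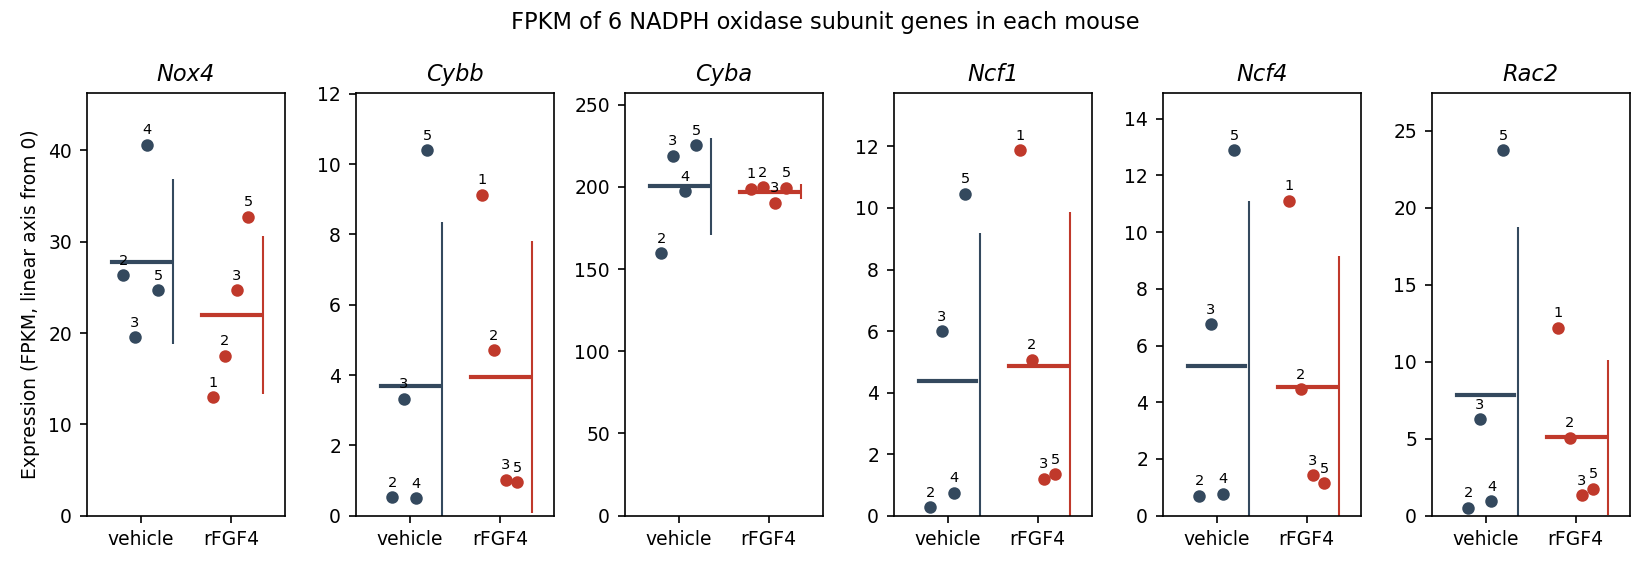
FPKM of the 6 subunit genes on linear axes that start at 0, with 1 point per mouse and its number. Thick lines are group means and thin lines 1 SD to either side (n = 4), drawn no lower than 0. For *Cybb*, *Ncf1*, *Ncf4* and *Rac2* each group holds 2 mice with high and 2 with low values, and *Cyba* stays between 160 and 225 FPKM in all mice.

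*Nox4*, the catalytic subunit known for its abundance in tubules, was the most highly expressed of the catalytic genes in every mouse. *Nox4* had 13.0, 17.5, 24.7 and 32.7 FPKM in rFGF4 mice 1, 2, 3 and 5. It had 26.3, 19.6, 40.6 and 24.7 FPKM in vehicle mice 2, 3, 4 and 5. The lowest pair of values was in rFGF4-treated mice and the highest in a vehicle-treated mouse, but the ranges overlapped from 19.6 to 32.7 FPKM. The means were 22.0 ± 8.64 FPKM (SD, n = 4) with rFGF4 and 27.8 ± 9.03 FPKM (SD, n = 4) with vehicle. The log2 difference of -0.35 (standard error 0.31, limma adjusted p = 0.920) was within the spread between mice (exact permutation test, two-sided, p = 0.371, where 4 mice against 4 cannot go below 0.0286). Its 95% confidence interval, -1.06 to 0.35, held both a fall to 0.479 of the vehicle level and a rise to 1.28 times that level, on the FPKM + 1 scale. *Nox4* (ENSMUSG00000030562) lies on the plus strand of chromosome 7 of GRCm38 from 87246096 to 87398710 in GENCODE M21, with 8 annotated transcripts, and shares no exonic bases with another gene. Its share of the summed FPKM of 6 catalytic genes (*Nox4*, *Cybb*, *Nox1*, *Nox3*, *Duox1* and *Duox2*) was 58.1% to 96.7% with rFGF4 and 69.5% to 98.5% with vehicle.

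*Cybb*, the catalytic subunit of the phagocyte oxidase, took most of the remainder of that sum. It stood at 9.13, 4.71, 1.03 and 0.951 FPKM in rFGF4 mice 1, 2, 3 and 5 and at 0.530, 3.32, 0.492 and 10.4 FPKM in vehicle mice 2, 3, 4 and 5. Each group thus had 2 mice near or below 1 FPKM and 2 mice at 3.32 FPKM or more, with no mouse between 1.03 and 3.32 FPKM. The group means, 3.96 ± 3.87 FPKM (SD, n = 4) and 3.69 ± 4.67 FPKM (SD, n = 4), differed by far less than either SD. The log2 difference was 0.26 (standard error 0.78, limma adjusted p = 0.971, two-sided exact permutation p = 0.714). The 95% confidence interval ran from -1.53 to 2.05, and so held both a fall to 0.345 and a rise to 4.13 times the vehicle level (FPKM + 1). Within groups, the SD of *Cybb* on the log2 scale was 1.29, larger than in 97.7% of tested genes, although its mean level exceeded that of 46.7% of them.

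*Cyba*, the membrane partner shared by both catalytic subunits, was the most highly expressed of the 6 genes. Its FPKM was 199, 200, 190 and 200 in rFGF4 mice 1, 2, 3 and 5 and 160, 219, 198 and 225 in vehicle mice 2, 3, 4 and 5. All rFGF4-treated values lay inside the vehicle range, and the highest value of the 8 was 1.41 times the lowest. The means were 197 ± 4.58 FPKM (SD, n = 4) and 200.4 ± 29.6 FPKM (SD, n = 4). The log2 difference of -0.01 (standard error 0.14, limma adjusted p = 0.994, two-sided exact permutation p = 1) had a 95% confidence interval of -0.33 to 0.31, the narrowest of the 6. That interval leaves room for a change to 0.794 or to 1.24 times the vehicle level. *Cyba* exceeded *Nox4* by 4.86 to 15.3 times and *Cybb* by 21.7 to 401 times within the single libraries. *Cyba* (ENSMUSG00000006519) is encoded on the minus strand of chromosome 8 from 122424776 to 122432930.

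*Ncf1*, which encodes the organizer that carries the cytosolic complex to the membrane, varied over a wider range than *Cybb*. Its FPKM was 11.9, 5.07, 1.20 and 1.35 in rFGF4 mice 1, 2, 3 and 5 and 0.272, 5.995, 0.753 and 10.5 in vehicle mice 2, 3, 4 and 5. The highest value was 43.7 times the lowest, and no mouse lay between 1.35 and 5.07 FPKM. The group means were 4.87 ± 5.003 FPKM (SD, n = 4) and 4.37 ± 4.82 FPKM (SD, n = 4), with a log2 difference of 0.29 (standard error 0.84, 95% confidence interval -1.63 to 2.21, limma adjusted p = 0.968). The two-sided exact permutation p was 0.714. *Ncf1* (ENSMUSG00000015950; chromosome 5, 134220053 to 134229625, minus strand) has exonic bases in common with *Gtf2ird2* on the opposite strand, and the use of strand in counting is not given in the sources used here. *Gtf2ird2* stood at 0.285 to 0.551 FPKM with rFGF4 and at 0.849 to 1.32 FPKM with vehicle, groups without overlap, as in 3.33% of tested genes. The low values of *Ncf1* are thus of the size of its neighbor's. In vehicle mice 2 and 4 *Ncf1* (0.272 and 0.753 FPKM) was below *Gtf2ird2* (0.849 and 1.31 FPKM). Any part of *Gtf2ird2* reads in the values of *Ncf1* was not tested.

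*Ncf4*, whose product binds a phosphoinositide of phagosome membranes, followed the same mice. It had 11.1, 4.46, 1.43 and 1.14 FPKM in rFGF4 mice 1, 2, 3 and 5 and 0.706, 6.75, 0.770 and 12.9 FPKM in vehicle mice 2, 3, 4 and 5. The means, 4.54 ± 4.64 FPKM (SD, n = 4) and 5.28 ± 5.81 FPKM (SD, n = 4), stood in the opposite order to the log2 difference, which was 0.02 (standard error 0.82, 95% confidence interval -1.86 to 1.90, limma adjusted p = 0.998) and turned to -0.074 when libraries shared one median ratio. A two-sided exact permutation test gave p = 0.971.

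*Rac2*, the Rac GTPase of blood cells, showed the widest spread. It had 12.2, 5.05, 1.33 and 1.74 FPKM in rFGF4 mice 1, 2, 3 and 5 and 0.505, 6.26, 0.920 and 23.7 FPKM in vehicle mice 2, 3, 4 and 5. The value of vehicle mouse 5 was 47.0 times that of vehicle mouse 2, and the rFGF4-treated mice lay between them. The means were 5.08 ± 5.03 FPKM (SD, n = 4) and 7.85 ± 10.9 FPKM (SD, n = 4), with a log2 difference of -0.01 (standard error 0.94, 95% confidence interval -2.16 to 2.15, limma adjusted p = 0.9999, two-sided exact permutation p = 1). Within groups its SD of 1.55 on the log2 scale was larger than in 98.6% of tested genes. Without vehicle mouse 5 the log2 difference of *Rac2* was 0.78 and that of *Cybb* 0.86, neither past the threshold (limma adjusted p = 0.676 and adjusted p = 0.639). *Ncf4* and *Rac2* lie 297 kb apart on chromosome 15, *Ncf4* (ENSMUSG00000071715) from 78244801 to 78262580 and *Rac2* (ENSMUSG00000033220) from 78559167 to 78572783, whereas *Cybb* (ENSMUSG00000015340) is on chromosome X from 9435252 to 9487771.

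The 4 highest values of *Cybb*, *Ncf1*, *Ncf4* and *Rac2* came from the same 4 mice, rFGF4 mice 1 and 2 and vehicle mice 3 and 5. These 4 mice also held the 4 highest values in 17.4% of all tested genes. *Nox4* had its 4 lowest values in them, as did 3.52% of tested genes. The values of *Nox4* on either side of that split were nearly equal, with 24.67 FPKM in vehicle mouse 5 and 24.69 FPKM in rFGF4 mouse 3. Among the other tested pathway genes, 2 of 3 partners and 4 of 11 regulators had their 4 highest values in these mice. *Cyba* shared 3 of its 4 highest mice with *Cybb*, at levels 1.41-fold apart at most. Mitochondrial transcripts took 19.0%, 24.7%, 34.2% and 24.4% of summed FPKM in rFGF4 mice 1 and 2 and vehicle mice 3 and 5. In rFGF4 mice 3 and 5 and vehicle mice 2 and 4 they took 29.8%, 35.98%, 38.4% and 37.2%. A link between these shares and the split of mice was not tested. Since the mice fell into separate sets for 4 of the 6 genes, no pooled correlation is given for the pairs that include them. Of the 15 pairs of members, *Nox4* and *Cyba* remain, with Pearson's r = -0.17 (exact permutation p = 0.698, adjusted p = 0.698 over 15 pairs), Spearman's rho = -0.43 (exact permutation p = 0.299, adjusted p = 0.299) and r = -0.29 without the 2 mice farthest from the median of *Nox4*.

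**Figure D2:**
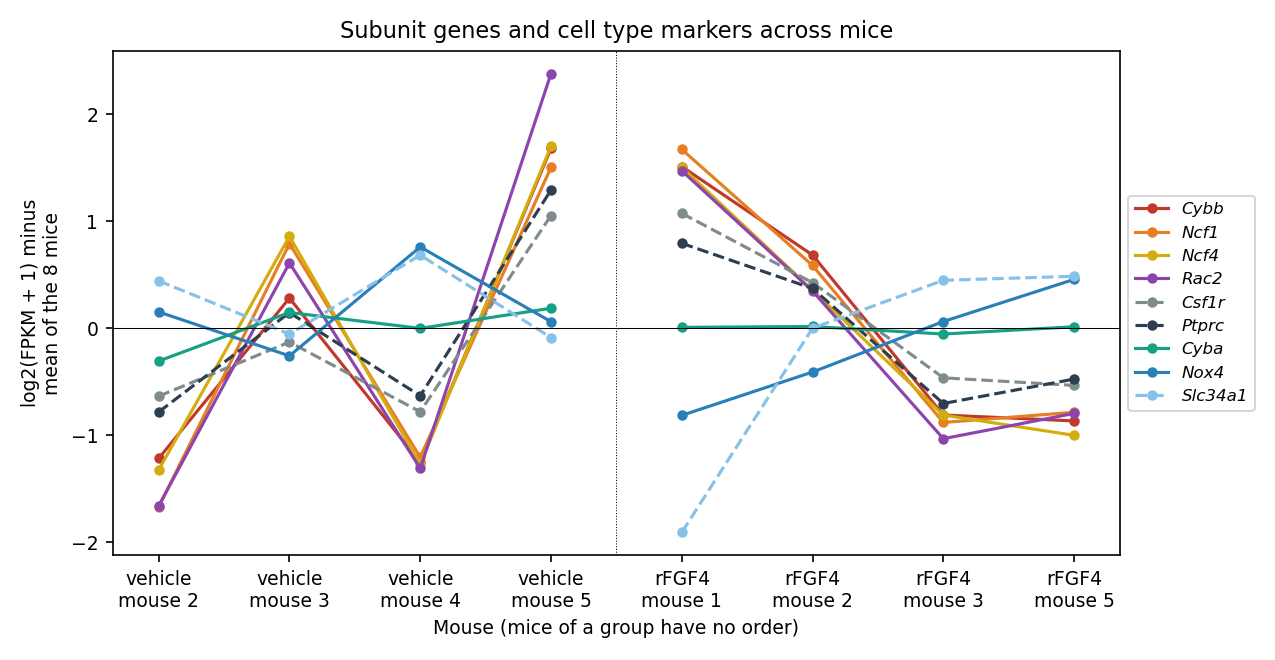
Deviation of log2(FPKM + 1) from the mean of the 8 mice for the 6 subunit genes (solid lines), 2 leukocyte markers and the proximal tubule gene *Slc34a1* (dashed lines). Lines join the mice of a group only to guide the eye. *Cybb*, *Ncf1*, *Ncf4* and *Rac2* are above their mean in rFGF4 mice 1 and 2 and vehicle mice 3 and 5, *Cyba* stays near 0, and *Nox4* is lowest in rFGF4 mouse 1.

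Nearly all leukocyte and macrophage markers shared their 4 highest mice with the phagocyte subunits. Tested neutrophil, B cell, podocyte and fibroblast markers shared 3 or 4 of these mice, and endothelial, proximal tubule, loop and collecting duct markers fewer. *Ptprc*, which encodes the pan-leukocyte antigen CD45, had 2.53, 1.63, 0.250 and 0.464 FPKM in rFGF4 mice 1, 2, 3 and 5 and 0.183, 1.25, 0.314 and 3.98 FPKM in vehicle mice 2, 3, 4 and 5. All 3 leukocyte markers and 9 of 10 macrophage markers had their 4 highest values in the same 4 mice as *Cybb*, and *Mrc1* in 3 of them. Of the 10 macrophage markers 0 were listed at 0 in any library and 10 had a positive log2 difference (rFGF4 minus vehicle), as did 67.1% of all tested genes (again 10, beside 47.6%, with one median ratio for all libraries), with a median of 0.43 and 0 of them past an unadjusted p of 0.05. The mean FPKM of *Lyz2*, in contrast to its log2 difference, was lower with rFGF4 (280 against 382). Of 8 neutrophil markers 5 were tested and 0 were called. Of these 5, 1 shared all 4 highest mice with *Cybb* and 5 shared 3 or more. In contrast to the macrophage markers, 0 of the 5 had a positive log2 difference (again 0 with one median ratio), with a median of -0.04. The summed FPKM of the 8 was 23.2 to 244 with rFGF4 and 3.36 to 391.9 with vehicle. The neutrophil markers *Ly6g*, *Mpo* and *Elane* were listed at 0 in some libraries and reached at most 0.821 FPKM. The 4 B cell markers summed to 68.7 to 2644 FPKM with rFGF4 and 23.1 to 22381 FPKM with vehicle, nearly all of it from *Igkc*. Of the 3 tested B cell markers 1 (*Igkc*) shared all 4 mice and 3 shared 3 or more, and 1 had a positive log2 difference (median -0.64). *Ms4a1* was too low for a test. The 4 T cell markers, none tested, summed to 0.542 to 4.84 FPKM and 0.303 to 14.5 FPKM. *Cd3d* shared all 4 highest mice with *Cybb*, and *Cd3e*, *Cd4* and *Cd8a* shared 3. The part of these cells in the levels of the subunit genes was not tested, and in RNA of bulk kidney tissue more cells of a type and more RNA per cell cannot be told apart.

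All 5 proximal tubule markers had their 4 lowest values in the same 4 mice as *Nox4*. *Slc34a1*, the phosphate transporter of the proximal tubule, had 136, 513, 700 and 718 FPKM in rFGF4 mice 1, 2, 3 and 5 and 697, 494, 824 and 483 FPKM in vehicle mice 2, 3, 4 and 5. Like *Nox4* it was lowest in rFGF4 mouse 1 and highest in vehicle mouse 4. The proximal tubule list (*Slc34a1*, *Lrp2*, *Cubn*, *Slc5a2* and *Slc5a12*) summed to 188 to 926 FPKM with rFGF4 and to 591 to 1051 FPKM with vehicle, with 0 of 5 genes called and a median log2 difference of -0.38. Its part in the level of *Nox4* was not tested. Of the remaining lists, 0 of 4 endothelial and 0 of 4 loop and collecting duct markers shared 3 or more of the 4 highest mice with *Cybb*. All 5 podocyte markers shared 3, and all 3 fibroblast markers shared 3 or more, of which 1 (*Col1a1*) shared all 4. The share of all tested genes with 3 or more was not calculated. Of 42 markers tested over all lists, only the podocyte gene *Synpo* passed the study's threshold (log2 difference 0.87, standard error 0.30, limma adjusted p = 0.918), beside 1.52% of all tested genes.

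Ratios within a library were formed after the values were seen and were not tested. Those among the phagocyte subunits and of *Cybb* or *Nox4* to markers varied less than the gene in the numerator. *Nox4* over *Cybb* had a 58.1-fold range, more than either gene, and *Cyba* over *Cybb* an 18.5-fold range, more than *Cyba* and less than *Cybb*. *Ncf4* over *Cybb* was 0.948 to 1.40 with rFGF4 and 1.24 to 2.03 with vehicle, where *Ncf4* itself differed 18.3-fold between mice. *Ncf1* over *Cybb* was 1.08 to 1.42 with rFGF4 and 0.513 to 1.80 with vehicle, the lowest in vehicle mouse 2, in which *Ncf1* had 0.272 FPKM. *Rac2* over *Cybb* lay between 0.952 and 2.28. The ratio of *Cybb* to *Ptprc* was 2.05 to 4.11 with rFGF4 and 1.57 to 2.89 with vehicle, a 2.62-fold range beside the 21.1-fold range of *Cybb*. Against *Csf1r*, the receptor of macrophage colony-stimulating factor, *Cybb* kept a wider range, 0.0736 to 0.409. *Nox4* over *Slc34a1* was 0.0342 to 0.0511 in 7 mice and 0.0956 in rFGF4 mouse 1, and *Nox4* over *Lrp2* was 0.299 to 0.504 with rFGF4 and 0.386 to 0.698 with vehicle. Their ranges, 2.80-fold and 2.34-fold, were only somewhat below the 3.13-fold range of *Nox4* itself. Each of these ratios overlapped between the groups.

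**Figure D3:**
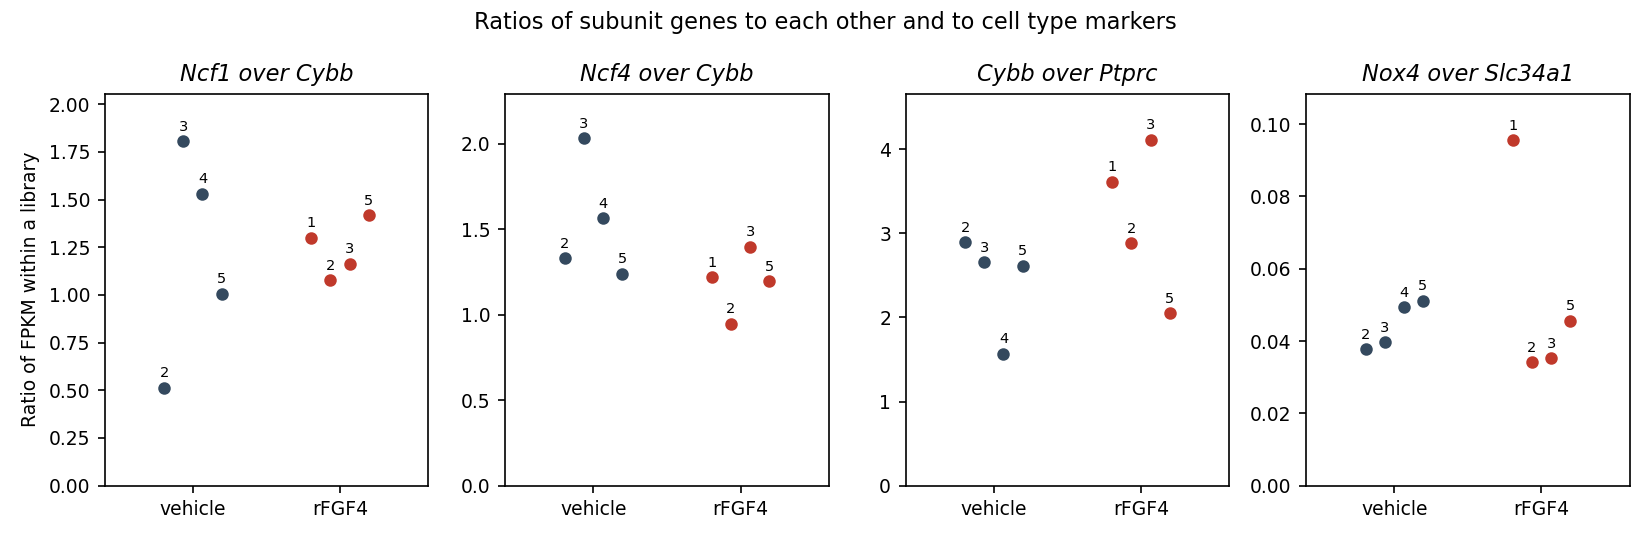
Ratios of FPKM within each library on linear axes from 0, with 1 point per mouse and its number. The groups overlap in each panel, and the ratio of *Nox4* to *Slc34a1* is 0.0956 in rFGF4 mouse 1 and at most 0.0511 in the others.

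Promoter sequences are shown for *Cybb* and *Ncf1*, whose levels followed the same mice, and for *Nox4*, whose 4 lowest values came from the mice that were highest for *Cybb*. Windows of 250 bases before to 50 bases after the RefSeq start on GRCm38.p6 were matched for 4 of the 6 genes, not for *Ncf4* and *Rac2*. The RefSeq starts of *Cybb* and *Nox4* lie inside the longer GENCODE intervals of these genes. The sequences are given 5′ to 3′ on the strand of the gene, at chrX:9469275-9469574 (minus strand), chr5:134229576-134229875 (minus strand) and chr7:87246399-87246698 (plus strand). Capitals mark the PU-box, the letters GAGGAA on either strand, a motif bound by the leukocyte transcription factor PU.1.
*Cybb*: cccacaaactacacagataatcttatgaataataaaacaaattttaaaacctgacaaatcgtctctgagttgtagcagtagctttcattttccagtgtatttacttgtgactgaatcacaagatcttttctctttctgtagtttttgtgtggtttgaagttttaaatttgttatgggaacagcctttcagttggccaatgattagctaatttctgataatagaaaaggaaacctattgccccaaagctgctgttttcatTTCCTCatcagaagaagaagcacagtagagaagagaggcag
*Ncf1*: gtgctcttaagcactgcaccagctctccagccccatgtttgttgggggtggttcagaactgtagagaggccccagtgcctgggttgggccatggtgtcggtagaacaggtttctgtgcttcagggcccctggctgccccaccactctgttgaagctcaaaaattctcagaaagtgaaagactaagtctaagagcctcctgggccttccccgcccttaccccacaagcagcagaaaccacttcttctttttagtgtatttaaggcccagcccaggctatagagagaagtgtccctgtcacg
*Nox4*: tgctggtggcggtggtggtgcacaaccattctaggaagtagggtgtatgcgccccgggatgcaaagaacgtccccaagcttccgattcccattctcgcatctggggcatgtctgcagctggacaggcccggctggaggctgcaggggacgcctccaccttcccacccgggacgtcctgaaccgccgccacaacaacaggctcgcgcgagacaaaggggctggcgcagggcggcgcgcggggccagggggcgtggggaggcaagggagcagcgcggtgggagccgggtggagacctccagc
The window of *Cybb* held 1 match, on the opposite strand and starting at base 10 after the gene start, and those of *Ncf1*, *Nox4* and *Cyba* held 0. Of 32817 windows of all genes, 28.3% held the letters. The GC content was 35.3% for *Cybb*, 54.0% for *Ncf1*, 60.7% for *Cyba* and 68.3% for *Nox4*.

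The other genes of the pathway comprised 4 catalytic genes, 6 partners and 12 regulators, of which 14 were tested. Of these 14, 1 was called at the study's threshold (1.52% of all tested genes) and 0 at an adjusted p under 0.05, and 12 had a positive difference, or 6 once the libraries were put on a common median ratio, where 67.1% and 47.6% of all tested genes had one. The median log2 difference was 0.05, beside 0.09 for all tested genes. *Nox3*, the oxidase of the inner ear, was listed at 0 in all 8 libraries. *Nox1*, *Duox1* and *Duox2* stayed at or below 0.843 FPKM and were not tested, and neither were *Noxa1*, *Duoxa1*, *Duoxa2* and the regulator *Prkcb*.

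Among the partners, *Cybc1*, a chaperone of the phagocyte catalytic subunit, ranged from 3.11 to 9.26 FPKM, also with its 4 highest values in the same mice. *Noxo1*, an organizer that can stand in for the *Ncf1* product, ranged from 0.473 to 2.56 FPKM with a log2 difference of -0.21 (limma adjusted p = 0.941).

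*Rac1*, the Rac GTPase found in most cell types, was expressed 2.26 to 78.6 times as highly as *Rac2* within a library. *Rac1* had 75.3, 59.1, 50.3 and 41.3 FPKM in rFGF4 mice 1, 2, 3 and 5 and 39.7, 40.1, 38.4 and 53.5 FPKM in vehicle mice 2, 3, 4 and 5. The difference of 0.37 on the log2 scale (standard error 0.20, limma adjusted p = 0.918) was within the spread between mice (exact permutation test, two-sided, p = 0.143). It passed an unadjusted p of 0.05 when rFGF4 mouse 5 was left out (log2 difference 0.50, limma adjusted p = 0.506).

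*Pak1*, a kinase that acts below Rac GTPases, was the regulator called at the study's threshold. Its FPKM was 17.5, 13.4, 14.4 and 9.58 in rFGF4 mice 1, 2, 3 and 5 and 7.52, 6.65, 8.21 and 10.1 in vehicle mice 2, 3, 4 and 5. The groups overlapped only between rFGF4 mouse 5 and vehicle mouse 5. The means were 13.7 ± 3.27 FPKM (SD, n = 4) and 8.13 ± 1.47 FPKM (SD, n = 4), a log2 difference of 0.67 (standard error 0.19, 95% confidence interval 0.23 to 1.12, limma adjusted p = 0.918). The unadjusted limma p was 0.00781 and the two-sided exact permutation p 0.0571, so the difference did not pass the correction over all genes. The fold of *Pak1* also fell short of 1.5 once libraries shared one median ratio (log2 difference 0.56) and without rFGF4 mouse 1 (0.56), at an unadjusted p under 0.05 in both. *Vav1* and *Prex1*, which load Rac GTPases, *Hvcn1*, the proton channel that offsets charge during the oxidative burst, and *Arhgdib*, which holds Rac GTPases in the cytosol, had differences of 0.08, 0.02, 0.06 and 0.01 on the log2 scale. *Poldip2*, which binds the *Nox4* enzyme complex, was among the steadiest, with 22.5 to 30.8 FPKM, and had its 4 lowest values in the same mice as *Nox4*.

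**Figure D4:**
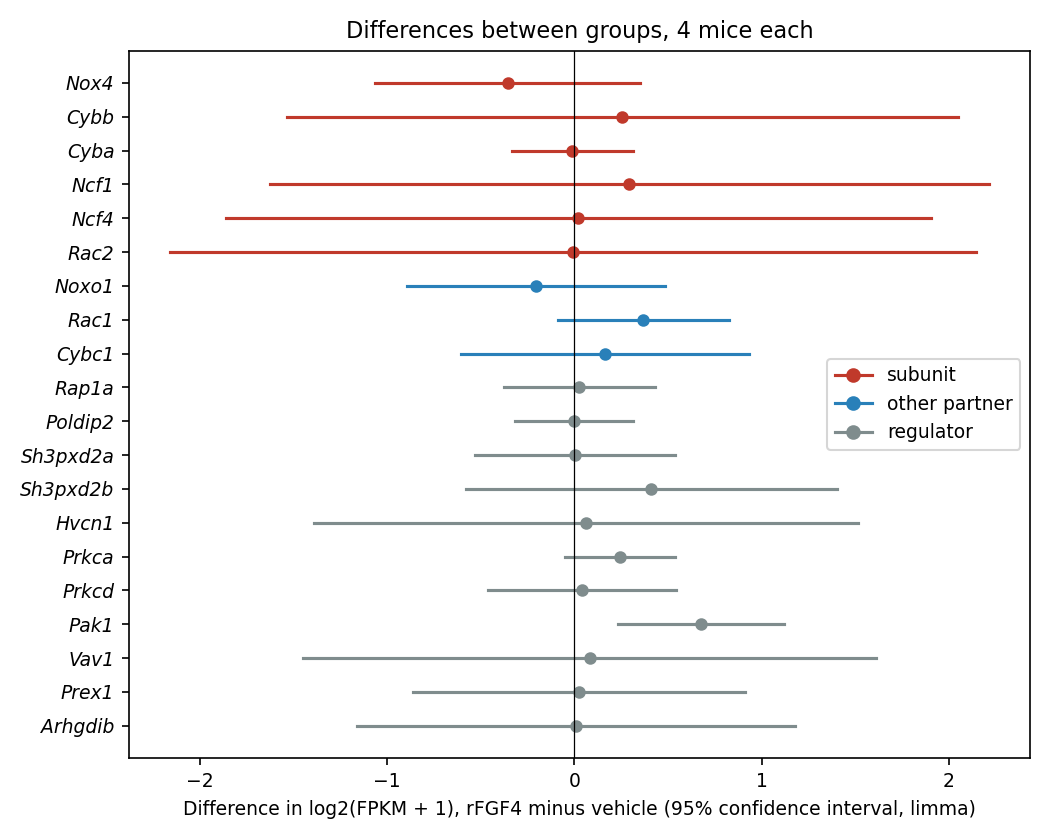
Difference in log2(FPKM + 1) between rFGF4-treated and vehicle-treated mice (points) with 95% confidence intervals from limma (lines) for the 6 subunit genes and the 14 other tested genes of the pathway. The interval of *Pak1* does not reach 0 (0.23 to 1.12, unadjusted), and those of the 6 subunit genes all do, from the narrowest for *Cyba* to the widest for *Rac2*.

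By KEGG annotation in the deposited table, *Cybb*, *Cyba*, *Ncf1*, *Ncf4* and *Rac2* share the pathway of leukocyte transendothelial migration, and 4 of them, without *Rac2*, the phagosome. *Nox4* shares no pathway with these 5 apart from AGE-RAGE signaling in diabetic complications, which holds *Nox4* and *Cybb*. Across the 8 libraries, 13198 other tested genes with a mean of at least 1 FPKM were ranked by Pearson's r of log2(FPKM + 1) as a measure of likeness, with no test and over libraries that fell into separate sets for the phagocyte genes. The genes most like *Cybb* were *Cd300c2*, *Cst3*, *Hcls1*, *Gsdmd* and *Smox* (r from 0.995 to 0.997). Those most like *Ncf1* were *Atg16l2*, *Map11*, *Gda*, *Pirb* and *Ms4a6d* (r from 0.994 to 0.995). *Ncf4* was most like *Fcer1g*, *Lst1*, *Pirb*, *Gngt2* and *Ccdc88b* (r from 0.994 to 0.997), and *Rac2* most like *Lcp2*, *Syk*, *Dok3*, *Cd53* and *Fyb* (r from 0.994 to 0.997). *Nox4* was most like *1110032A03Rik*, *Ppt2*, *Ccs*, *Tprkb* and *2500002B13Rik* (r from 0.959 to 0.965), and *Cyba* most like *Polr2c*, *Atp6v1g1*, *Fam89b*, *Tmem170* and *Apba3* (r from 0.924 to 0.975).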

How the data were processed

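Total kidney RNA was poly(A)-selected and sequenced as paired ends. Per the labels and the study's methods, the authors mapped the reads, assembled transcripts with StringTie, merged them with gffcompare and deposited 1 FPKM value per gene and library. The submitters' processing notes name HISAT2 2.0, StringTie 1.3.0, Bowtie 0.12.2 and the build mm8. The identifiers are Ensembl genes, of which 55141 of 55401 were found in GENCODE M21 (GRCm38), the source of coordinates. The table also holds the authors' fold changes, p-values and q-values, which were not used. Values at or below 0.0001 were read as 0.

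Genes with at least 0.5 FPKM in 4 or more libraries were compared as log2(FPKM + 1) in R 4.3.3 with limma 3.58.1 (prior variance allowed to follow the mean level, Benjamini-Hochberg adjustment over 15150 genes). The edgeR test of the study needs counts and was not run. Single genes were also compared by exact permutation of the log2 means in Python 3.11.15, and figures were drawn with matplotlib 3.10.9. The limma procedure was tested on simulated data. The members, lists, tests and alternatives were chosen with earlier results of these data known. The genes named are the members, listed pathway and marker genes, and the 5 genes most like each member. Some listed genes are not reported here and were left out of the lists. The PU-box and the ratios were chosen after the values were seen. The labels do not describe shared mouse numbers as pairs. The sources used here name no batches of mice or libraries, and p-values measure the spread between these libraries.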

Additional observations from a re-analysis of the deposited data

Results flagged for a closer look

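In 60 groups of 4 libraries (the 6 subunit genes, 14 other pathway genes and 10 summed marker lists in each treatment group), 5 held a library that stood apart by the 95% critical value of Dixon's test, which chance exceeds in about 1 in 20 groups. The test divides the gap between an extreme library and its nearest neighbor by the range of its group. On the log2(FPKM + 1) scale, the gap took 0.886 of the range for *Cyba* in rFGF4 mouse 3 (190 FPKM against 199 to 200 in the rest of its group). It took 0.872 for *Rac1* (53.5 FPKM against 38.4 to 40.1) and 0.946 for *Hvcn1* (7.35 FPKM against 0.507 to 0.652) in vehicle mouse 5. It took 0.891 for the summed T cell markers in vehicle mouse 5 (14.5 FPKM against 0.303 to 0.707) and 0.887 for the summed loop and collecting duct markers in rFGF4 mouse 1 (1022 FPKM against 1451 to 1517).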

How the results depend on the processing

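None of the 6 subunit genes passed the study's threshold under any of the 14 alternatives, of which the 8 that left out a mouse gave a smallest unadjusted limma p of 0.0903 and the other 6 one of 0.261. With each mouse left out, the log2 difference ranged from -0.57 to -0.14 for *Nox4*, -0.20 to 0.86 for *Cybb*, -0.12 to 0.050 for *Cyba*, -0.21 to 0.84 for *Ncf1*, -0.48 to 0.59 for *Ncf4* and -0.56 to 0.78 for *Rac2*, so that the sign of each apart from *Nox4* depended on single mice. Of the other 36 values 28 kept their sign. *Rac2* turned to 0.21 with a pseudocount of 0.1 and to 0.21 after rescaling to a common sum without mitochondrial genes, which also turned *Cyba* to 0.089, and scaling to a common median ratio turned *Ncf4* to -0.074. Same-numbered mice did not deviate together (correlations of -0.39 to -0.16), so the numbers were not taken as pairs. A replicate block, which rests on numbers 2, 3 and 5 alone, gave 0.051 for *Nox4*, -0.58 for *Cybb*, -0.57 for *Ncf1*, -0.90 for *Ncf4* and -0.94 for *Rac2*, none past the threshold, and of the other pathway genes it called 0 higher (*Pak1* had a log2 difference of 0.56 with a standard error of 0.27, beside 0.67 and 0.19) and 1 lower (*Arhgdib*) at an unadjusted p under 0.05.

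The genes at the study's threshold numbered 231, with 262 under the replicate block, 174 when libraries shared one median ratio, 348 at a pseudocount of 0.1, 457 after rescaling without mitochondrial genes and 187 to 575 with a mouse left out (575 without rFGF4 mouse 5, 432 without vehicle mouse 5). Genes without overlap rose from 504 to 822 after the same rescaling and to between 673 and 1668 with a mouse left out, where fewer mice make overlap rarer. An adjusted p under 0.05 was reached by 0 genes (700 at an unadjusted p under 0.05), by 1 with no filter on low values, and by 0 to 1 with a mouse left out. *Noxa1* joined *Pak1* at an unadjusted p under 0.05 with no filter on low values (2 genes), and *Rac1* and *Prkca* did without rFGF4 mouse 5 (1 to 3 genes over the 8 fits). Where not stated, the cause was not tested. Without counts, the precision of values under 1 FPKM is unknown.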
